A study of Oryza sativa Japonica Group with 20 samples.

Results

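The data compare where EMF2b sits with where H3K27me3 lies in wild-type rice root tips. Both were mapped by CUT&Tag, an assay in which an antibody guides a transposase that cuts and tags the chromatin next to it. Root tips of about 0.8 cm were taken from ZH11 wild-type (WT) seedlings 7 days after germination, and 2 libraries were made with an antibody against EMF2b and 2 with one against H3K27me3, 4 of the 20 samples of the series. Libraries against H3K4me3 and PLT5 in WT (2 each), and against H3K27me3 and EMF2b in plt345, a triple mutant of the transcription factor genes PLT3, PLT4 and PLT5 (2 each), were used to describe the same places further. The source of the EMF2b antibody is not named in the labels. The PLT5 and H3K4me3 libraries of plt345 and the IgG libraries were not analysed here. Whether the IgG libraries served as controls when peaks were called is not stated. No label says that the 2 libraries of an antibody were grown or prepared separately, and their spread may be technical.

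H3K27me3 is set by Polycomb repressive complex 2 (PRC2) and accompanies the silencing of developmental genes. EMF2b is a rice subunit of this complex, related to EMF2 of Arabidopsis and to Su(z)12 of Drosophila, and in rice it is known for its role in flowering and floral organs. In Arabidopsis, PRC2 is held to be recruited at short sequence elements, from which the mark spreads along the chromatin. A map of a PRC2 subunit and a map of its mark therefore need not have the same shape.

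Members were taken by position alone. Peaks of the 2 libraries of an antibody were merged where they touched, and a merged peak was kept when both libraries touched it. This gave 12612 EMF2b sites out of 17368 merged EMF2b peaks and 21044 H3K27me3 domains out of 25890 merged H3K27me3 peaks. The sites had a median width of 699 bp (quartiles 530 and 943 bp), and the domains of 1362 bp (quartiles 803 and 2190 bp, range 282 to 7540 bp). Domains lay under 8.98% of the 374 Mb spanned by peaks and sites under 2.64%. The EMF2b lists held 15486 and 14851 peaks, of which 82.3% and 86.5% met a peak of the other library. The H3K27me3 lists held 23957 and 24185 peaks, of which 89.8% and 90.03% did. Summits of the 2 EMF2b libraries lay a median of 61 bp apart at a site, and the outer edges of the 2 H3K27me3 libraries a median of 65 bp apart at a domain. Read depth is unknown, since peak lists carry no counts. No source used here names the assembly, so regions are given by the positions in the lists and no gene or sequence is attached to them. With 2 libraries against 2, an exact two-sided permutation test cannot go below p = 0.333, and regions are not replicates, so values below are descriptions with their spread over libraries and no test. Wilson 95% intervals cover counting error only. Summit positions and densities of the 2 EMF2b libraries use the same sites and domains, so their SDs reflect summit placement only.

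Most H3K27me3 domains carried no EMF2b site. Of the 21044 domains, 15962 (75.9%) had 0 sites, 4923 (23.4%) had 1 and 159 (0.756%) had 2 or more, so that 5082 domains, or 24.1% (95% interval 23.6 to 24.7%), had at least 1. The 4 ways of setting 1 EMF2b library against 1 H3K27me3 library gave 25.9 to 26.98% with at least 1. An EMF2b peak of only 1 library lay on a further 1294 of the domains without a site, which left 14668 domains (69.7%) with no EMF2b peak at all. Per chromosome the share with a site ran from 18.0% on chromosome 11 to 28.4% on chromosome 1. The share with 2 or more depended on how peaks were joined and chosen. It was between 0.381 and 1.43% under the settings tried, and with 1 EMF2b library alone 1.36% (without replicate 1) or 1.38% (without replicate 2).

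Widths are given as classes whose upper bound is not included. The share of domains with a site did not follow their width in 1 direction. It was 27.8% (410 of 1477, 95% interval 25.5 to 30.1%) for domains under 500 bp and 28.0% (1656 of 5912, interval 26.9 to 29.2%) for those of 500 to 1000 bp. Domains of 1000 to 2000 bp were at 21.2% (1561 of 7370, interval 20.3 to 22.1%) and those of 2000 to 4000 bp at 22.5% (1315 of 5833, interval 21.5 to 23.6%). The 452 domains of 4000 to 8000 bp were at 31.0% (140, interval 26.9 to 35.4%), and no domain reached 8000 bp. The low middle classes and the higher ends were seen in each of the 4 library pairs, where domains of 1000 to 2000 bp were at 22.1 to 23.6%, those of 500 to 1000 bp at 28.5 to 29.2% and those of 4000 to 8000 bp at 33.0 to 35.8%. Among the 100 widest domains, all of at least 4666 bp, 30 had a site.

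**Figure D1:**
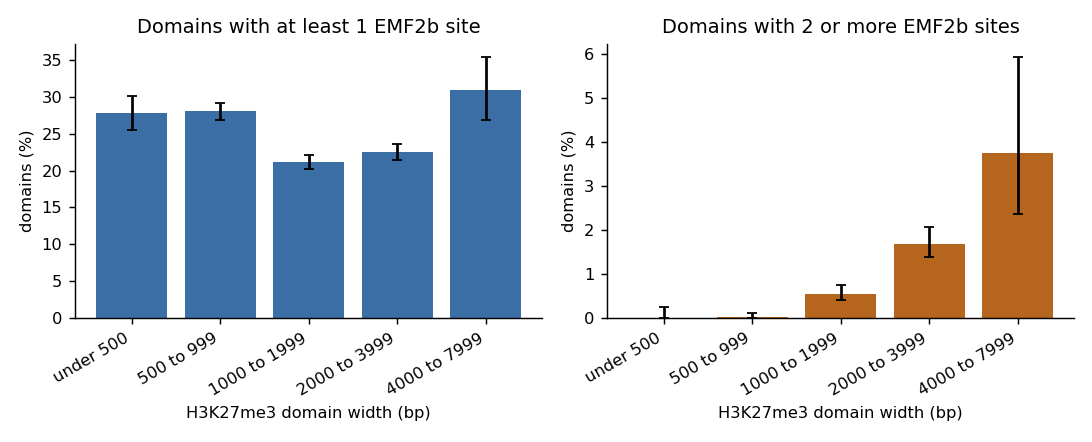
Share of H3K27me3 domains (y axis, %) with at least 1 (left) and with 2 or more (right) EMF2b sites, by domain width in bp; bars are shares and error bars Wilson 95% intervals. The share with at least 1 site is lowest, at 21.2%, for domains of 1000 to 2000 bp, and the share with 2 or more is highest, at 3.76%, for those of 4000 to 8000 bp.

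Domains with 2 or more sites were seen almost only at the larger widths. There were 0 among 1477 domains under 500 bp (upper limit of the interval 0.259%), 2 among those of 500 to 1000 bp, 41 (0.556%) at 1000 to 2000 bp, 99 (1.70%) at 2000 to 4000 bp and 17 (3.76%, interval 2.36 to 5.94%) at 4000 to 8000 bp. Their median width was 2583 bp, against 1177 bp for domains with 1 site and 1405 bp for domains with 0. Neighbouring summits in them were a median of 1306 bp apart in EMF2b library 1 and 1417 bp in library 2. Wider domains offer more room, and measured per length EMF2b was thinner in them. In-domain summits numbered 622 ± 2.27 per Mb (SD, n = 2 EMF2b libraries) in domains under 500 bp, 357 ± 0.324 at 500 to 1000 bp, 138 ± 0.0660 at 1000 to 2000 bp and 84.5 ± 0.312 at 2000 to 4000 bp. In domains of 4000 to 8000 bp both libraries gave 73.2 per Mb, still above the 22.6 ± 0.0125 per Mb outside all domains. Both libraries' summits were taken at the same shared sites, so these SDs reflect where summits fell, not which sites were found.

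Only 1 domain held 3 sites, the 2601 bp on chromosome 3 from 13642718 to 13645318. Its H3K27me3 peaks were strong, with a −log10 q of 19.6 in library 1 and 20.3 in library 2, where the median of domains of 2000 bp and more with 0 sites was 5.01 and 4.83. The widest domain with 2 sites, of 6323 bp, was on chromosome 7 between 1508708 and 1515030. Another of 6311 bp spanned 4726008 to 4732318 on chromosome 9. Their H3K27me3 fold enrichment was low, at 1.67 and 1.68 in the first and 1.49 and 1.51 in the second. The other three of the 6 domains ranked by number of sites were on chromosome 1 from 33516414 to 33522378, chromosome 5 from 12307055 to 12312338 and chromosome 7 from 28713343 to 28718087. All 6 carried H3K4me3 in both WT libraries, and 5 carried PLT5 in both, where 67.3% and 71.1% of all 159 domains with 2 or more sites did. Each of the 6 had H3K27me3 and EMF2b peaks in both plt345 libraries. Of the 159, 128 (80.5%) had EMF2b peaks in both plt345 libraries, and 93.4 ± 1.33% (SD, n = 2) had an H3K27me3 peak in a plt345 library. The H3K27me3 share was 83.6% for domains with 0 sites and 80.8% for those with 1, which had smaller median widths. Within width classes, domains with 2 or more sites were not above the others. They were at 82.9% against 90.01% with 0 sites at 1000 to 2000 bp, and at 97.4% against 98.4% at 2000 bp and more.

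Of the 6 widest domains without any EMF2b peak, 1 carried H3K4me3 and 1 PLT5 in both WT libraries. Over all domains of 2000 bp and more with 0 sites these shares were 12.7% and 5.07%. The widest of all, 7540 bp on chromosome 3 from 15777876 to 15785415, had a fold enrichment of 1.57 and 1.48 and neither H3K4me3 nor PLT5. The next, of 6605 bp, spanned 21840645 to 21847249 on chromosome 2. A domain of 5965 bp between 16937862 and 16943826 on chromosome 10 had PLT5 in both libraries. H3K27me3 was found at all 6 in both plt345 libraries, and at 98.4% of all domains of 2000 bp and more with 0 sites (mean of the 2 plt345 libraries).

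Seen from the side of EMF2b, fewer sites lay on the mark than off it. Of the 12612 sites, 5227, or 41.4% (95% interval 40.6 to 42.3%), overlapped an H3K27me3 domain, where domains made up 8.98% of the span. Single library pairs gave 43.0 to 44.0%. A further 1211 sites met an H3K27me3 peak of 1 library only, and 6174 (49.0%) met none. The share in domains ran from 34.5% on chromosome 5 to 51.3% on chromosome 11. Chromosome 11 also had the highest share of its span under domains, 10.1%, and the fewest sites per Mb, 23.3, while chromosome 5 had the lowest share under domains, 7.77%.

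Sites were sorted by whether they lay within, crossed or covered a domain, with no allowance for small offsets. Of the 5212 sites on 1 domain, 1866 (35.8%) lay within it, 2514 (48.2%) crossed 1 of its edges and 832 (16.0%) covered it. Covering was the most frequent form on domains under 500 bp (240 of 407, 59.0%). On domains of 2000 to 4000 bp, 802 of 1412 sites (56.8%) lay within and 608 (43.1%) crossed an edge. Another 15 sites touched more than 1 domain. The summit itself was outside the domain at 6.06% of in-domain sites in EMF2b library 1 and 5.95% in library 2. Domain bases lay under sites at 10.6%, and site bases under domains at 36.0%.

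The position of summits depended on domain width. Each domain was cut into 5 zones of equal length, from the outermost zone (the outer 10% at each end) to the central 20%, so that summits spread evenly would put 20% in each. In domains under 500 bp the central zone held 47.2% of summits in EMF2b library 1 and 47.7% in library 2, and the outermost zone 4.92% and 5.41%. At 500 to 1000 bp the central zone held 29.3% and 28.9% and the outermost 5.19% and 6.23%. At 1000 to 2000 bp the zones were closer to even, with 20.7% and 18.3% in the centre and 12.4% and 13.4% outermost. The order was the opposite in wide domains. At 2000 to 4000 bp the outermost zone held 30.04% and 31.7% and the central one 11.6% and 11.5%, and at 4000 to 8000 bp the outermost held 42.6% and 45.3% of 148 summits each and the central one 10.1% and 12.2%. In each class the 2 libraries' values for the outermost zone did not overlap those for the central zone. Both describe the same shared sites, so their closeness is largely set by the choice of sites.

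**Figure D2:**
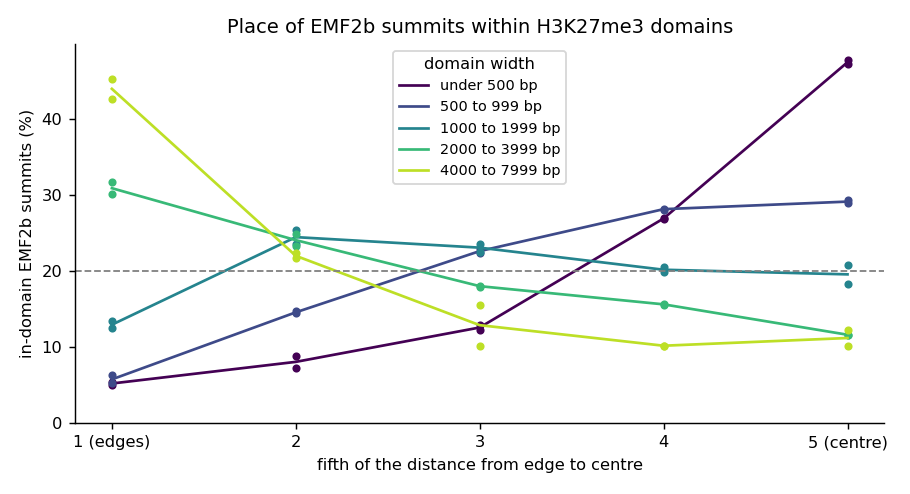
Share of in-domain EMF2b summits (y axis, %) in each of 5 zones from the edges to the centre of the domain (x axis), by domain width; lines are means and points the 2 EMF2b libraries, and the dashed line at 20% is an even spread. Lines for domains under 1000 bp are highest at the centre, and those for 2000 bp and more at the edges, where the outermost zone of the widest class holds 43.9 ± 1.91% (SD, n = 2).

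Over all widths these opposite layouts nearly cancelled: the central 50% of the domain held 54.4% and 54.1% of the 4910 and 4916 in-domain summits. This pooled value went to the other side of 50%, to 48.8%, when H3K27me3 peaks up to 1000 bp apart were joined. By width the central 50% held 80.2 ± 0.986% (SD, n = 2) in domains under 500 bp, 69.1 ± 0.0280% at 500 to 1000 bp, 51.1 ± 1.22% at 1000 to 2000 bp, 35.9 ± 0.290% at 2000 to 4000 bp and 27.03% in both libraries at 4000 to 8000 bp. In bp, the distance of summits to the nearer edge was longer in wider domains, where the centre, which caps it, lies farther in. The median distance to the nearer edge, as the mean of both libraries, was 157 bp for domains under 500 bp, 229 bp at 500 to 1000 bp, 353 bp at 1000 to 2000 bp, 466 bp at 2000 to 4000 bp and 536 bp at 4000 to 8000 bp. The lower quartile was 214 to 224 bp in the last 3 classes, while the upper quartile was 191, 288, 502, 819 and 1213 bp from the narrowest class to the widest. Over all widths 51.5% and 51.4% of summits lay on the left of the centre, and at 4000 to 8000 bp 58.1% and 60.8% of 148 summits each did.

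In domains of 2000 bp and more, the summits thinned out from the edge inwards. There were 135 ± 6.30 summits per Mb (SD, n = 2) in the first 250 bp from an edge, 114 ± 3.15 at 250 to 500 bp, 81.6 ± 2.48 at 500 to 750 bp and 60.9 ± 0.675 at 750 to 1000 bp. Further in, the density was 51.0 ± 1.79 per Mb at 1000 to 1500 bp and 40.8 ± 1.25 at 1500 to 2000 bp. Both libraries gave the same order over these steps, at the same shared sites. Beyond 2000 bp from either edge 7 and 6 summits were left in 0.214 Mb. Across the edge the density was 18.6 ± 3.38 per Mb in the first 250 bp outside, 9.54 ± 1.86 at 250 to 500 bp and 13.8 ± 1.26 at 500 to 1000 bp. It was 21.1 ± 0.856 at 1 to 2 kb and 27.4 ± 0.218 at 10 to 20 kb. The outermost zone of these domains held 31.3% and 33.0% of their summits, and 30.8 to 35.9% under the alternatives tried. Pairs of 1 EMF2b and 1 H3K27me3 library, which were not limited to shared sites, gave 32.1 to 36.3%.

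**Figure D3:**
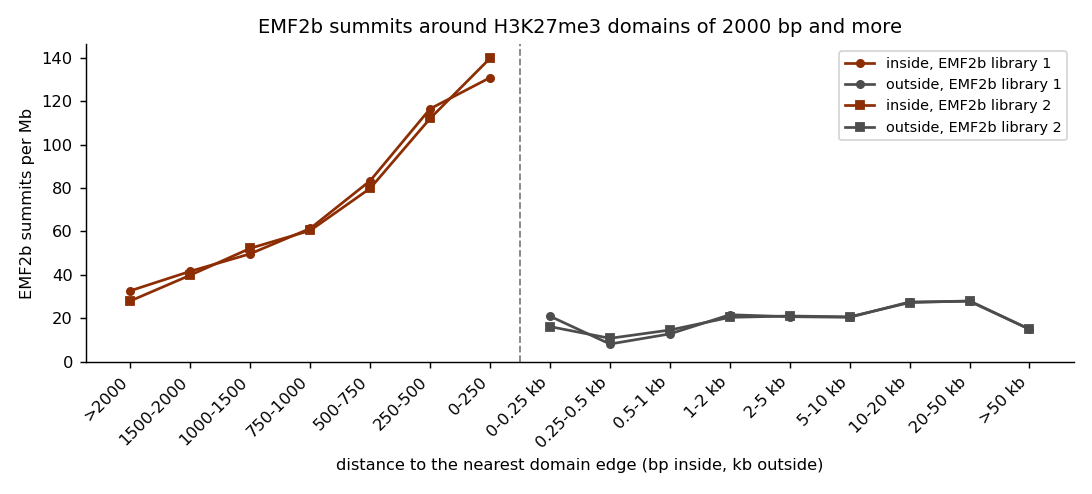
EMF2b summits per Mb (y axis) by distance to the nearest edge of H3K27me3 domains of 2000 bp and more (x axis, unequal steps; inside in bp on the left of the dashed line, outside in kb on the right), for each of the 2 EMF2b libraries. Inside, the density is highest in the first 250 bp (131 and 140 per Mb), and outside it is lowest at 250 to 500 bp (8.22 and 10.9 per Mb).

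Edge and inner summits of wide domains differed in part on the other maps. H3K4me3 in both libraries was present at the sites of 46.8% and 45.7% of summits in the outermost zone and of 38.3% and 37.3% of summits in the central 50%. PLT5 was present at 52.4% and 53.3% of the former and 56.9% and 55.0% of the latter. Sites without H3K4me3 also lay at the edges, with 29.1% and 31.2% of their summits in the outermost zone against 34.3% and 35.4% of those with it. All 159 domains with 2 or more sites, which include those under 2000 bp, had 25.8% and 31.5% of their summits in the outermost zone.

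The strongest sites were those most often on the mark, and they lay on small domains. The −log10 q of the authors' peak caller was used to rank sites within each EMF2b list. Of the strongest 10% of sites, 60.7% in library 1 and 59.95% in library 2 were in a domain, and of the weakest 10% 35.7% and 35.5%. The second strongest 10% were at 45.7% and 47.2%, so the largest step was between the strongest 10% and the next. By the mean of both libraries, the 763 in-domain sites of the strongest 10% had a median width of 910 bp and lay on domains with a median width of 840 bp, and 40.5% of them covered their domain. The 447 in-domain sites of the weakest 10% had medians of 585 bp and 1529 bp, and 2.01% covered their domain. Summits of the strongest 10% were in the central 50% of their domain at 65.1% and 66.8%, and those of the weakest 10% at 55.1% and 49.4%. The fourth 10% from the weakest had a mean of 48.0%, so the share did not rise steadily with strength. Domains under 1000 bp held 56.7% of the in-domain sites of the strongest 10% and 30.6% of those of the weakest. Summits of all strengths were central there at 80.2% (under 500 bp) and 69.1% (500 to 1000 bp), and strength was not split by width. H3K4me3 and PLT5 were both present at 81.5% of the in-domain sites of the strongest 10% and at 16.6% of those of the weakest. For sites outside domains the same shares were 69.1% and 12.5%.

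The single strongest in-domain site, on chromosome 4 from 12545810 to 12546433, had an EMF2b −log10 q of 169 in library 1 and 171 in library 2 and a fold of 21.3 and 22.3. Its summits were 296 and 292 bp from the edge of a domain of 1297 bp. The second, on chromosome 8 from 12797703 to 12798219, reached 168 and 158 and a fold of 26.2 and 25.1, and its domain of 464 bp lay inside the site. The third, on chromosome 12 from 13349165 to 13349854, reached 154 and 159 on a domain of 747 bp, with summits 360 and 359 bp from its edge and so almost at its centre. The others of the first 6 were on chromosome 12 from 20472273 to 20473132 and from 20576627 to 20578144, and on chromosome 10 from 14535100 to 14535782. All 6 carried H3K4me3 and PLT5 in both WT libraries and H3K27me3 and EMF2b in both plt345 libraries. Whether peaks found with all these antibodies at the same place are specific to each was not tested. Of all in-domain sites, 42.9% carried both H3K4me3 and PLT5, and 76.7% and 82.5% had EMF2b in plt345 libraries 1 and 2. H3K27me3 was found in plt345 at 80.8% of all domains with 1 site (mean of 2 libraries).

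Sites outside domains were somewhat weaker. Their median −log10 q was 12.1 and 11.8 in the 2 libraries, against 13.7 and 13.3 inside, and their median fold 4.49 and 4.66 against 4.74 and 4.98. The strongest was on chromosome 9 from 10245347 to 10246563, with 117 and 125, at 2.42 kb from the nearest domain and without H3K4me3. The next were on chromosome 2 from 9418663 to 9419381, with 94.1 and 102, at 77.5 kb, and on chromosome 8 from 10853815 to 10854795, with 83.0 and 78.3, at 28.9 kb. The 6 strongest all had PLT5 in both WT libraries and EMF2b in both plt345 libraries, and 2 had H3K4me3 in both WT libraries. Of all outside sites, 46.2% had PLT5 and 51.6% H3K4me3 in both WT libraries. EMF2b was found at 68.5% and 74.3% of them in plt345 libraries 1 and 2. H3K27me3 was found in 1 plt345 library at 3 of the 6 and in both at none, where 602 (8.15%) and 249 (3.37%) of all outside sites were so found.

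Distances from the 7385 sites outside domains to the nearest domain were long. The median was 11.6 kb, with quartiles of 4.17 and 25.9 kb, and 10% lay within 1.42 kb. Only 122 (1.65%) were within 0.5 kb, 445 (6.03%) within 1 kb, 1037 (14.0%) within 2 kb and 2097 (28.4%) within 5 kb. Counted over every base outside domains, 6.02% lay within 0.5 kb, 11.1% within 1 kb, 19.6% within 2 kb and 35.9% within 5 kb, with a median of 9.32 kb. Up to 10 kb, which held 45.5% of sites and 51.7% of bases, the sites were thus farther away than the bases, and at 50 kb, with 91.8% of sites and 88.5% of bases, they were not. A site has a width and counts as inside once 1 bp touches, which lowers the shares at the shortest distances. Summits of all sites, counted without that rule, numbered 22.6 per Mb over all bases outside domains. Their density was 19.6 per Mb in the first 250 bp from a domain, 8.71 at 250 to 500 bp, 13.1 at 500 to 1000 bp and 22.3 at 1 to 2 kb. A domain lay within 5 kb on both sides of 409 sites (5.54%).

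**Figure D4:**
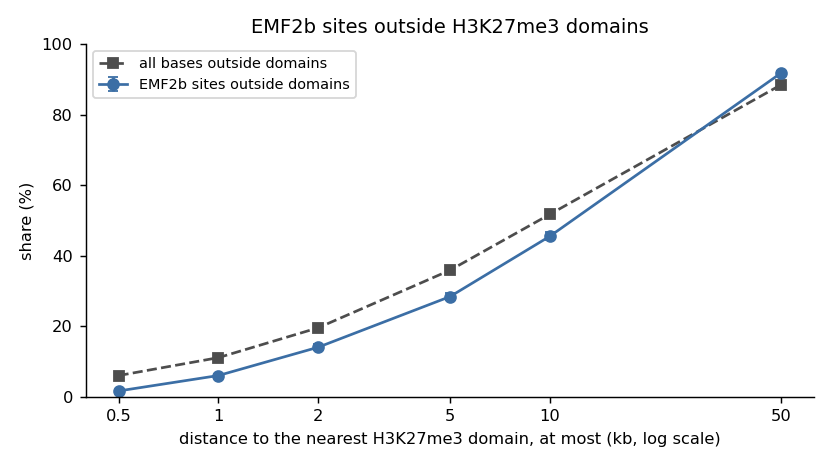
Cumulative share (y axis, %) of the 7385 EMF2b sites outside H3K27me3 domains, with Wilson 95% intervals, and of all bases outside domains, by distance to the nearest domain (x axis, kb, log scale). The sites are below the bases up to 10 kb (45.5% against 51.7%) and above them at 50 kb (91.8% against 88.5%).

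Sites with other marks were farther from domains. The median distance was 13.5 kb for the 3807 outside sites with H3K4me3 and 9.62 kb for the 3578 without it, and 13.6 kb for the 3415 with PLT5 and 9.86 kb for the 3970 without it. The farthest site, on chromosome 2 from 13605306 to 13606120, lay 401 kb from a domain, with a −log10 q of 34.3 and 32.9. Those next in rank were on chromosome 3 from 19527103 to 19528094, at 378 kb, and on chromosome 12 from 11715139 to 11715890, at 359 kb. H3K4me3 was present in both libraries at 5 of the 6 farthest sites and PLT5 at 4, where 51.6% and 46.2% of all outside sites had them. Of the 6, 3 were on chromosome 2 between 13507574 and 13606120.

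H3K4me3, which marks active promoters, and PLT5, an AP2-type factor of root meristems, were then set beside the number of EMF2b sites. H3K4me3 was about as frequent at sites inside domains as outside, in both libraries at 52.4% (95% interval 51.0 to 53.7%) and 51.6% (interval 50.4 to 52.7%). PLT5 was found at 63.1% of sites inside (interval 61.7 to 64.4%) and 46.2% outside (interval 45.1 to 47.4%). Single PLT5 libraries gave 72.3% and 69.3% inside and 58.4% and 52.9% outside. Neither was found at 1437 sites inside (27.5%) and 2506 outside (33.9%).

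Domains with a site differed much more from domains without one. H3K4me3 was present in both libraries at 12.2% of domains with 0 EMF2b sites, 54.4% of those with 1 and 67.3% (interval 59.7 to 74.1%) of those with 2 or more, and PLT5 at 4.60%, 64.1% and 71.1%. Domains with 1 site were above those with 0 on both maps in each width class. At 1000 to 2000 bp PLT5 in both libraries was at 3.89% with 0 sites, 63.6% with 1 and 58.5% (24 of 41, interval 43.4 to 72.2%) with 2 or more, so that 2 or more was not above 1 there, and H3K4me3 was at 11.0%, 53.0% and 61.0%. In domains of 2000 bp and more, H3K4me3 was found at 14.4% and 13.6% (libraries 1 and 2) with 0 sites, 50.9% and 50.4% with 1 and 74.1% and 70.7% with 2 or more. PLT5 was found there at 9.88% and 7.18%, 66.6% and 64.5%, and 87.1% and 80.2%. In domains under 1000 bp, H3K4me3 was at 14.0% and 13.7% with 0 sites and 62.8% and 61.9% with 1. Whether such overlapping peaks come from the same cells was not tested.

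**Figure D5:**
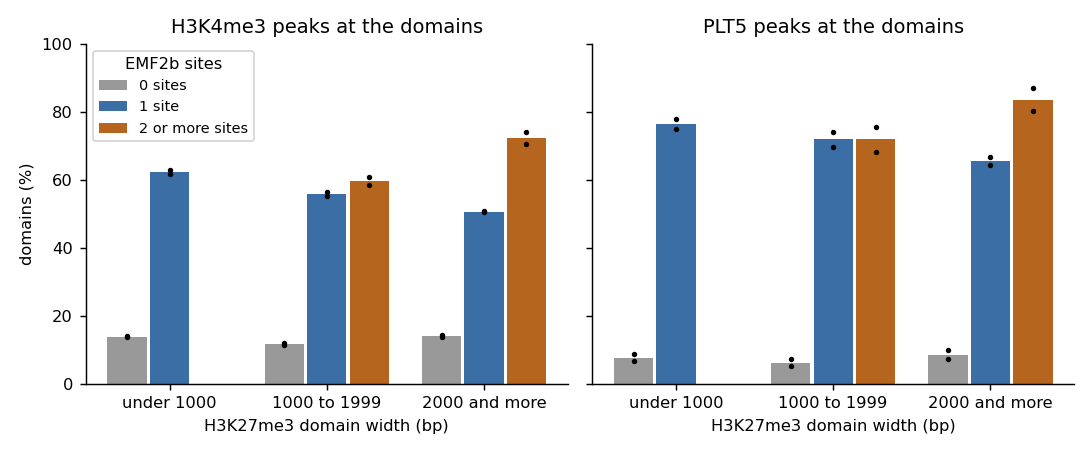
Share of H3K27me3 domains (y axis, %) that overlap an H3K4me3 peak (left) or a PLT5 peak (right), by domain width in bp (x axis) and number of EMF2b sites; bars are means of 2 libraries and points the libraries. Mean shares without a site are at most 14.0% on both maps, and those with a site at least 50.7%.

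H3K27me3 peak values differed with EMF2b in some width classes. The median fold enrichment of domains under 1000 bp was 2.01 and 2.07 (H3K27me3 libraries 1 and 2) with 0 sites and 2.24 and 2.35 with 1. In domains of 2000 bp and more it was 2.21 and 2.24 with 0 sites, 2.23 and 2.24 with 1 and 2.32 and 2.38 with 2 or more. At 1000 to 2000 bp the fold was 2.20 and 2.23 with 0 sites, 2.29 and 2.38 with 1 and 2.27 and 2.32 with 2 or more. The median −log10 q had another order there, at 3.75 and 3.68 with 0 sites, 3.42 and 3.49 with 1 and 2.54 and 2.54 in the 41 domains with 2 or more. It also fell at 2000 bp and more, with 5.01 and 4.83, 4.90 and 4.73, and 4.68 and 4.72. Under 1000 bp it rose with the fold, from 2.71 and 2.80 with 0 sites to 2.79 and 3.01 with 1. The 25% of domains with the lowest fold had a site in 16.0% and 15.7% of cases, and the next 25% in 24.2% and 23.6%. The third 25% were at 28.9% and 27.9%, and the 25% with the highest fold at 27.5% and 29.5%, so the share levelled off.

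The last comparison asked whether the WT layout bore on what the plt345 libraries showed at the same places. Among domains under 1000 bp, an H3K27me3 peak was found in plt345 at 63.1% of those with 0 EMF2b sites and 64.4% of those with 1 (mean of 2 libraries, SD at most 0.0343). At 1000 to 2000 bp the values were 90.01 ± 0.0852% with 0 sites, 88.0 ± 0.279% with 1 and 82.9% in both libraries for the 41 domains with 2 or more. At 2000 bp and more they were 98.4 ± 0.132%, 98.1 ± 0.106% and 97.4 ± 1.22% (SD, n = 2). Domains were chosen for presence in both WT libraries, which by itself lowers other libraries beside them. Regions of 1 WT library under 1000 bp were found in the other WT library at 80.2 ± 1.29% without a site and 80.7 ± 1.19% with one, and in the plt345 libraries at 57.9 and 57.8% without and 58.0 and 58.1% with one.

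EMF2b itself was found again in plt345 more often at sites inside domains than outside. A plt345 EMF2b peak was present at 76.7% and 82.5% of sites inside (libraries 1 and 2) and at 68.5% and 74.3% of those outside. Inside was higher within each library, and the lowest value inside was above the highest outside. Sites inside also had the higher median −log10 q in WT (13.7 and 13.3 against 12.1 and 11.8), and the comparison was not split by strength. The plt345 lists held 15342 and 17891 peaks. The same order was seen between WT replicates: EMF2b regions of 1 WT library met the other at 87.5 ± 2.42% inside and 82.3 ± 3.32% outside domains (SD, n = 2). Unlike the sites, these regions were not chosen for presence in both WT libraries. In plt345 libraries 1 and 2 they were found at 71.7% and 77.7% inside and 62.0% and 68.2% outside (means over 2 WT libraries).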

How the data were processed

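Peak lists of 12 libraries were read, and the members, width classes and lists used were chosen with earlier results of these data known. MACS2 (version 2.2.7.1), Bowtie2 (2.4.4), deepTools (3.5.0) and Trim Galore (0.6.6) are named, without roles, per the submitters' processing notes. No source used here gives the genome build, the control library or the handling of duplicates. The authors called peaks in each sample separately. The deposited columns give a fold enrichment (a ratio over the peak caller's background), −log10 p and −log10 q, and a score derived from these. Peak positions and summits are deposited in bp, and are printed counting from 1. Peak names in the deposited lists carry a p cutoff of 1e-05 for EMF2b and a tag for broad calling for H3K27me3.

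Merging, overlap (at least 1 bp), distances and positions were computed in Python 3.11.15 with pandas 2.3.3, numpy 2.4.6 and scipy 1.17.1, and tested on simulated data. A site's summit in a library is that of its strongest peak there (start plus offset). Folds and q-values were used within a list only. Densities divide summits by the bases available at that distance, with each gap between domains split at its middle. Named regions follow a rule: the 6 domains with most sites (wider first), the 6 widest without an EMF2b peak, the 6 strongest sites inside and outside domains by mean −log10 q, and the 6 farthest from a domain, without unplaced sequences. Genes were not assigned, because the gene table at hand could not be matched to the unnamed assembly. Alternatives were a 150 bp overlap, peaks above the 25th percentile of q, joining of domains within 1000 bp and of sites within 500 bp, bases of both H3K27me3 libraries, either library, each library left out, same-numbered pairs and the stronger summit.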

Additional observations from a re-analysis of the deposited data

How the results depend on the processing

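Alternatives are given in the order share of domains with at least 1 site, share with 2 or more, share of sites in domains, share of summits in the central 50%, median distance outside, and share of summits in the outermost zone of domains of 2000 bp and more; the last was added after the data were seen. Peaks above the 25th percentile of q gave 18.5%, 0.381%, 31.6%, 55.1%, 14.7 kb and 35.3%. Joining domains across 1000 bp gave 27.03%, 1.34%, 42.4%, 48.8% and 35.2%, with the distance within the spread of the same-numbered pairs. Bases covered by both H3K27me3 libraries gave 22.5%, 0.449%, 40.4%, 53.1% and 35.9%. Either library gave 30.6%, 1.43%, 47.5% and 9.13 kb. Joining sites across 500 bp gave 0.423% with 2 or more and 32.4% outermost. The replicate number was also used as a replicate block (same-numbered EMF2b and H3K27me3 libraries, mean of 2 pairs). The values were then 26.4%, 1.02%, 43.5%, 52.6%, 10.0 kb and 33.5%. The crossed pairs gave 25.9% (EMF2b library 2 with H3K27me3 library 1) and 26.98% (1 with 2) with at least 1 site. For the outermost zone they gave 36.3% and 32.1%, farther apart than the 33.6% and 33.4% of the same-numbered pairs. Nothing shows that the numbers pair the samples. With each library left out in turn the ranges were 23.5 to 27.7%, 0.521 to 1.38%, 39.4 to 46.0%, 52.7 to 53.8%, 10.1 to 11.3 kb and 30.8 to 35.3%. An overlap of 150 bp and the summit of the stronger library moved no value beyond the spread of the same-numbered pairs. The cause of these shifts was not tested, except that keeping fewer or more peaks changes the counts by construction. Read depth is unknown, so peaks missed for lack of depth cannot be told apart from absent ones, and the number and strength of peaks limit each share.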
